A study of Mus musculus with 24 samples.

Results

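The comparison was between sWAT, the subcutaneous white fat depot, of 6 female Gdf15-KO mice and 6 female WT mice, by RNA-Seq, and it used 12 of the 24 mice of the study. The members were the female read-count columns, replicates 13 to 18 for Gdf15-KO and replicates 1 to 6 for WT, and these 12 columns were fitted alone. The Gdf15-KO mice lacked Gdf15 in the whole body from birth, and the WT mice were littermates from crosses of heterozygous parents. All 12 were on a mixed C57BL/6/129/SvJ background, were 20 weeks old, had free access to food and were killed at the start of the dark phase. The other 12 mice, 6 Gdf15-KO and 6 WT males, entered here only where a difference between the sexes was tested or where male values are set beside female ones. The study asked what the loss of GDF15 does to lipid metabolism in unchallenged adipose tissue.

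GDF15 is a secreted hormone of the TGF-beta superfamily that many cell types release under mitochondrial, nutritional or inflammatory stress. Its known receptor, GFRAL, is a protein of hindbrain neurons through which GDF15 lowers food intake. White adipose tissue stores triglyceride, which it makes from fatty acids taken up from lipoproteins or synthesized from glucose, and it releases fatty acids by lipolysis.

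Summed expected counts, the reads that the RSEM program assigned to genes, ran over 22543249 to 24500575 in the 6 Gdf15-KO females and over 23340858 to 23963487 in the 6 WT females. Expression is given as CPM, the read count relative to the size of its library, scaled by the TMM method. The adipocyte gene Adipoq, which encodes adiponectin, had a mean of 1414 ± 104 CPM in Gdf15-KO females and 1562 ± 234 CPM in WT females (SD, n = 6 each), and the groups overlapped. Other tissue was present in unequal amounts: the summed CPM of the skeletal muscle markers ran over 802 to 14977 in Gdf15-KO females and 93.9 to 20224 in WT females, where WT replicate 6 was the lowest. WT replicate 4 had the highest mammary gland and epithelial marker sum (2779 CPM, with a WT median of 1698). In whole tissue, fewer cells of a type and less RNA per cell cannot be told apart.

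The knocked-out gene was barely expressed in this tissue. Gdf15 lies on chromosome 8 at 71082038 to 71091537 of the GRCm39 mouse genome. It had 0, 1, 1, 1, 0 and 0 counts in Gdf15-KO replicates 13 to 18, against 9, 7, 14, 14, 12 and 17 counts in WT replicates 1 to 6. Every WT female thus had more Gdf15 counts than any Gdf15-KO female. The sums of 3 and 73 counts gave a level 25.8-fold higher in WT females, with an exact binomial 95% interval of 8.47 to 128 that covers counting error only. The mean was 0.0212 ± 0.0233 CPM in Gdf15-KO females and 0.527 ± 0.147 CPM in WT females (SD, n = 6 each). These counts were too low for the filter, so Gdf15 itself was not among the genes tested. Gfral was not analysed here.

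Of 19175 genes, 14753 had enough counts to be tested, and 249 of these (1.69%) lay within 20 Mb of Gdf15. In edgeR's quasi-likelihood test, 18 genes passed a Benjamini-Hochberg adjusted p under 0.05, which is 0.122% of all genes tested. Of these, 15 were lower in Gdf15-KO females (0.102%) and 3 were higher (0.0203%), and in all 18 the Gdf15-KO and WT values did not overlap. Near Gdf15 lay 17 of the 18, and the 1 elsewhere was Gvin2 on chromosome 7. A second test, DESeq2, passed 197 of the 13322 genes for which it gave an adjusted p (1.48%). It placed 144 of them lower (1.08%) and 53 higher (0.398%) in Gdf15-KO females. Near Gdf15 lay 40 of the 197, and 157 lay elsewhere. The DESeq2 calls included 17 of the 18 edgeR genes, and the exception, Slc18a1, had no DESeq2 adjusted p. At an unadjusted edgeR p under 0.05, 1078 genes were lower (7.31%) and 652 higher (4.42%) in Gdf15-KO females. By rank alone, the 6 Gdf15-KO values lay wholly below the 6 WT values in 79 genes (0.535%) and wholly above them in 68 genes (0.461%). The median log2 fold change over all genes tested was -0.0051.

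Near Gdf15 the differences were concentrated in a short stretch. The 17 genes called by edgeR spanned 69490135 to 73324932 of chromosome 8 (GRCm39), or 3.83 Mb, which held 105 tested genes. Of these 105 genes, DESeq2 called 38, and 29 had groups that did not overlap, 25 of them lower and 4 higher in Gdf15-KO females. A negative fold change was found in 85 of the 105 genes (81.0%), beside 51.5% of all genes tested. The median log2 fold change of the 105 was -0.22. The limits of this stretch were set by the called genes themselves, a choice that favours these counts and this median. The distances from Gdf15 used next do not depend on those limits. The median absolute log2 fold change was 0.24 over the 77 genes within 1 Mb, 0.32 over the 23 genes at 1 to 2 Mb and 0.28 over the 14 genes at 2 to 3 Mb. It was 0.06 over the 11 genes at 3 to 5 Mb, 0.08 over the 30 genes at 5 to 10 Mb and 0.10 over the 94 genes at 10 to 20 Mb, beside 0.10 over the genes outside the window. Between 3 and 20 Mb only Tecr was called, and only by DESeq2. On the rest of chromosome 8, DESeq2 called 4 of 505 genes. The loss of Gdf15 and a stretch of chromosome 8 inherited together with the targeted allele cannot be told apart in this design.

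**Figure D1:**
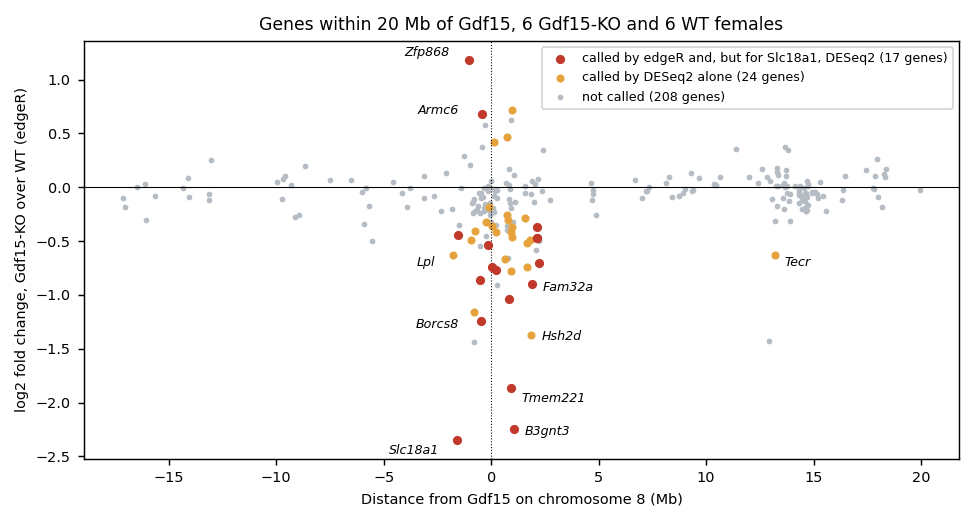
Each point is 1 of the 249 tested genes within 20 Mb of Gdf15, with its distance from Gdf15 (Mb) on the x axis and its log2 fold change, Gdf15-KO over WT females, on the y axis. Red and orange points, the genes called by edgeR and those called by DESeq2 alone, lie within 3 Mb of Gdf15 with the exception of Tecr at 13.2 Mb.

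The smallest edgeR adjusted p was that of B3gnt3, which encodes a glycosyltransferase that extends O-linked sugar chains, 1.06 Mb from Gdf15. Its lowest, median and highest values were 3.73, 5.23 and 6.41 CPM in Gdf15-KO females, against 22.7, 23.4 and 27.6 CPM in WT females. The groups were far apart, and B3gnt3 fell in Gdf15-KO females (log2 fold change -2.25, SE 0.12, edgeR adjusted p = 9.27e-07). Zfp868, a zinc finger gene 1.02 Mb on the other side, went the other way, with 24.5, 30.5 and 32.8 CPM in Gdf15-KO females and 11.5, 12.99 and 14.3 CPM in WT females. Every Gdf15-KO female was above every WT female, and Zfp868 rose (log2 fold change 1.18, SE 0.08, edgeR adjusted p = 9.12e-06). Its neighbour Zfp869, a related zinc finger gene, differed in the opposite direction (-0.49, edgeR adjusted p = 0.191, DESeq2 adjusted p = 0.0133), and reads of such related genes may be shared between them.

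Several genes of RNA processing and translation fell. Fam32a, a splicing factor in human cells, had 37.4, 41.9 and 44.5 CPM as lowest, median and highest values in Gdf15-KO females, against 69.1, 78.3 and 84.7 CPM in WT females. The groups stood well apart (log2 fold change -0.90, SE 0.06, edgeR adjusted p = 9.12e-06). Mrpl34, a protein of the large mitochondrial ribosomal subunit, had 6.55, 8.50 and 9.69 CPM in Gdf15-KO females and 14.5, 17.6 and 19.3 CPM in WT females (log2 fold change -1.03, edgeR adjusted p = 0.00104). Lsm4, part of the ring of proteins on U6 small nuclear RNA, lies 0.0441 Mb from Gdf15 and averaged 13.6 ± 2.24 CPM in Gdf15-KO females and 22.9 ± 2.85 CPM in WT females (SD, n = 6 each). It fell with an edgeR adjusted p of 0.0309, a call lost on 8 of the 12 omissions of 1 mouse. Ccdc124, which binds ribosomes, and Cherp, a spliceosome-associated protein, fell by 0.77 and 0.37 on the log2 scale (edgeR adjusted p = 0.0413 for each). These calls were lost on 9 of 12 omissions for Ccdc124 and on 11 for Cherp, which was kept only without Gdf15-KO replicate 14.

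A second set encodes proteins of membranes and endosomes. The B2 subunit of the proton pump V-ATPase, Atp6v1b2, had 83.3, 93.4 and 111 CPM in Gdf15-KO females, against 126, 130.4 and 132 CPM in WT females. Its groups did not overlap (log2 fold change -0.44, SE 0.06, edgeR adjusted p = 0.00721), and the call was lost without Gdf15-KO replicate 13. Borcs8, a subunit of the BORC complex that positions lysosomes, averaged 15.7 ± 4.61 CPM in Gdf15-KO females and 37.2 ± 1.77 CPM in WT females (SD, n = 6 each; log2 fold change -1.24, edgeR adjusted p = 0.00195). The vesicular monoamine transporter gene Slc18a1 was weakly expressed, at 0.295 ± 0.198 CPM in Gdf15-KO females and 1.54 ± 0.408 CPM in WT females (log2 fold change -2.34, edgeR adjusted p = 0.0127), and its call was lost without Gdf15-KO replicate 13, 15 or 16. Tmem221, a predicted membrane protein, was also low, at 1.04 ± 0.189 CPM in Gdf15-KO females and 3.78 ± 0.615 CPM in WT females (log2 fold change -1.86, edgeR adjusted p = 9.02e-05). Smim7, a small membrane protein, had 43.7, 49.6 and 51.5 CPM as lowest, median and highest values in Gdf15-KO females, against 76.3, 78.7 and 83.1 CPM in WT females. No value of Smim7 came near the other group (log2 fold change -0.71, edgeR adjusted p = 1.39e-05). Slc35e1, of the nucleotide sugar transporter family, fell by 0.47 (edgeR adjusted p = 0.00459).

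The remaining edgeR genes near Gdf15 were Klhl26, Rfxank, Armc6 and 1700030K09Rik. Klhl26, of the kelch family of ubiquitin ligase adaptors, had 22.0, 23.3 and 24.8 CPM in Gdf15-KO females and 31.7, 34.1 and 35.8 CPM in WT females, a narrow spread in each group (log2 fold change -0.54, edgeR adjusted p = 9.02e-05). Rfxank, a subunit of the RFX complex that binds promoters of MHC class II genes, averaged 10.9 ± 1.73 CPM in Gdf15-KO females and 19.8 ± 1.55 CPM in WT females (SD, n = 6 each; log2 fold change -0.86, edgeR adjusted p = 0.00195). Of the 13 other genes tested in the list of MHC class II presentation, none passed edgeR or DESeq2, and over all 14 the median log2 fold change was 0.05. Armc6 rose by 0.68 and 1700030K09Rik fell by 0.47 (edgeR adjusted p = 0.0413 for each), but the call of Armc6 was lost on 9 of the 12 omissions of 1 mouse and that of 1700030K09Rik on all 12. Several gene models of the edgeR genes near Gdf15 overlap a neighbour on the other strand. Rfxank overlaps Nr2c2ap by 2444 bases and Borcs8 by 297, B3gnt3 overlaps Jak3 by 1047 and Armc6 overlaps Sugp2 by 696. Slc18a1 and Atp6v1b2 overlap by 591 bases, and Cherp and 1700030K09Rik by 541 bases. Borcs8 lies wholly within Mef2b on its own strand. The sources used here do not state whether counting used strand, so reads of such pairs may be mixed.

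**Figure D2:**
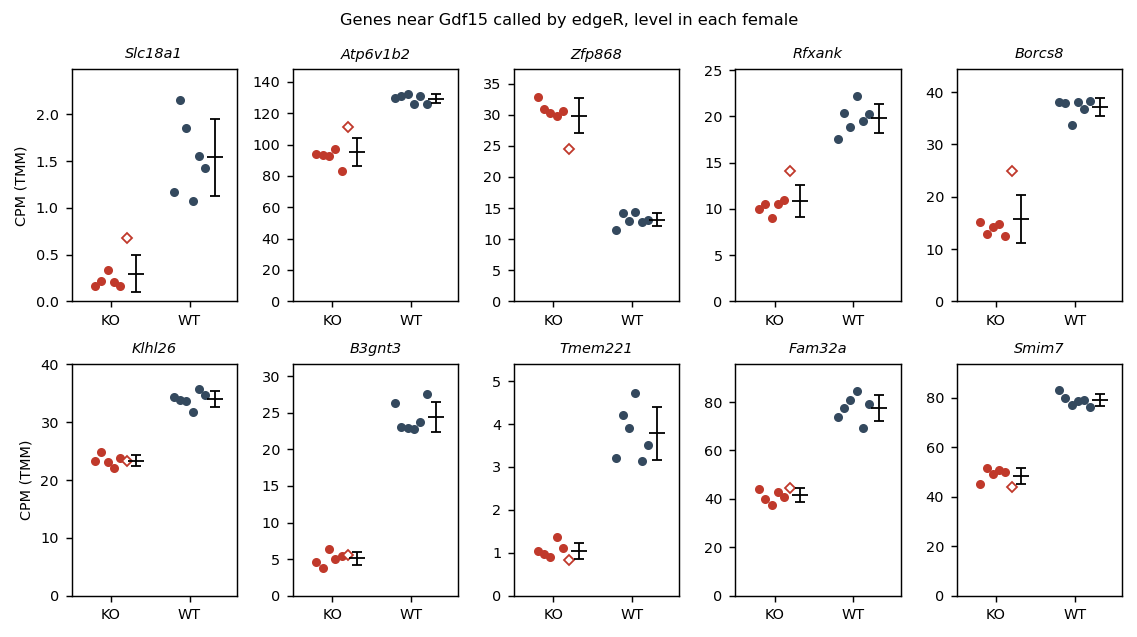
CPM of 10 genes near Gdf15 in each of the 6 Gdf15-KO females (red, left) and 6 WT females (blue, right), with bars for mean ± SD, in order of position on chromosome 8 from Slc18a1 to Smim7. The open diamond is Gdf15-KO replicate 18, which lies toward the WT values in Slc18a1, Atp6v1b2, Zfp868, Rfxank and Borcs8 and among the other Gdf15-KO females in Klhl26, B3gnt3, Tmem221, Fam32a and Smim7.

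Gdf15-KO replicate 18 departed from the other Gdf15-KO females on the lower-coordinate side of Gdf15. Its place between the groups was computed for each gene on the log2 scale, where 0 is the WT mean and 1 the mean of the other 5 Gdf15-KO females. At the 6 edgeR genes lying 0.4 Mb or more below Gdf15 its place was 0.41 to 0.73, with a median of 0.48. For Borcs8 this meant 24.9 CPM in Gdf15-KO replicate 18, against 12.4 to 15.1 CPM in the other 5 Gdf15-KO females and 33.7 to 38.4 CPM in WT females. At the other 11 edgeR genes of the stretch, which lie nearer to Gdf15 or above it, its place was 0.71 to 1.43, with a median of 1.02. DESeq2 added 4 genes on the lower-coordinate side: its place was -0.00 at Zfp869, 0.24 at Lpar2 and 0.54 at Lpl, but 1.24 at Ndufa13. Over the 30 genes nearer to Gdf15 or above it that either test called, its place was 0.12 to 1.70, with a median of 1.02. Its place was below 0.6 at 4 of these 30, among them Cyp4f18 (0.12) and Zfp961 (0.50). Of the 10 called genes 0.4 Mb or more below Gdf15, 7 were below 0.6. The boundary of 0.4 Mb was set after these values were seen, the pattern rests on 1 mouse, and its cause was not tested. Without Gdf15-KO replicate 18, edgeR called 17 genes, 16 of them near Gdf15.

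**Figure D3:**
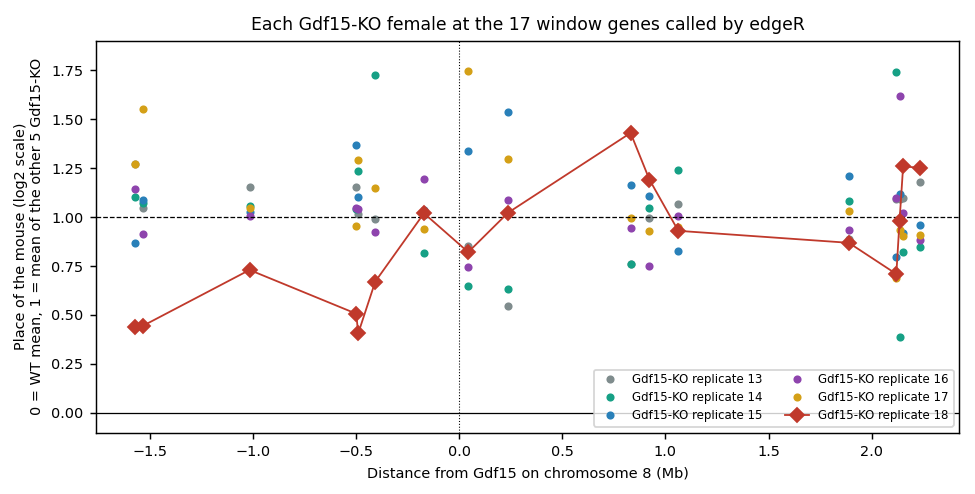
Place of each Gdf15-KO female between the WT mean (0) and the mean of the other 5 Gdf15-KO females (1), on the log2 scale, at the 17 genes near Gdf15 called by edgeR, by distance from Gdf15 (Mb). Gdf15-KO replicate 18 (red diamonds, joined by a line) is at 0.41 to 0.73 at the 6 leftmost genes and at 0.71 to 1.43 at the other 11.

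DESeq2 alone called another 24 genes near Gdf15, with edgeR adjusted p values from 0.0593 (Colgalt1, Pgpep1 and Zfp961) to 0.281 (Fkbp8), and among them were genes of lipid handling. Lpl encodes lipoprotein lipase, which frees fatty acids from circulating triglyceride, and lies 1.76 Mb from Gdf15. It had 3097, 3355 and 4041 CPM as lowest, median and highest values in Gdf15-KO females, against 3189, 5556 and 6100 CPM in WT females. The groups overlapped only through WT replicate 4, at 3189 CPM, since the other WT females had 5384 CPM or more (log2 fold change -0.63, edgeR adjusted p = 0.195, DESeq2 adjusted p = 0.00331). Slc27a1, the fatty acid transport protein FATP1, had 503, 543 and 865 CPM in Gdf15-KO females and 848, 1005 and 1481 CPM in WT females, with a slight overlap (log2 fold change -0.78, edgeR adjusted p = 0.195, DESeq2 adjusted p = 0.00448). Tecr, the reductase of the last step of very long chain fatty acid elongation, averaged 183 ± 47.9 CPM in Gdf15-KO females and 284 ± 63.4 CPM in WT females (SD, n = 6 each; DESeq2 adjusted p = 0.0429).

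The other genes near Gdf15 that DESeq2 alone called included Colgalt1, a galactosyltransferase of collagen, at 95.9 ± 3.78 CPM in Gdf15-KO females and 132 ± 19.2 CPM in WT females, with groups that did not overlap (SD, n = 6 each; DESeq2 adjusted p = 6.15e-05). The lysophosphatidic acid receptor gene Lpar2 fell by 1.15 and Crtc1, a coactivator of CREB, by 0.32 on the log2 scale (DESeq2 adjusted p = 0.00016 and 0.000206). Tropomyosin 4 (Tpm4) fell by 0.49 and Hsh2d, an adaptor protein of blood cells, by 1.37 (DESeq2 adjusted p = 0.0013 and 0.00122). Ifi30, the lysosomal thiol reductase induced by interferon, Ocel1 and Niban3 were the ones that rose, by 0.42, 0.47 and 0.71 (DESeq2 adjusted p = 0.00675, 0.000549 and 0.013). Niban3 overlaps Pgls, which fell, by 3477 bases on the same strand, so reads of this pair may be mixed.

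Outside this neighbourhood, DESeq2 called 109 genes lower and 48 higher in Gdf15-KO females, and in 60 of these 157 the groups did not overlap. Over all 14504 genes tested outside, the groups did not overlap in 117. The 157 were chosen by a test on these same mice, a choice that favours groups that do not overlap. Of the 157, edgeR called only Gvin2, a member of the very large interferon-inducible GTPases. Gvin2 had 158, 173 and 214 CPM as lowest, median and highest values in Gdf15-KO females, against 111, 125 and 129.9 CPM in WT females. All Gdf15-KO females were above all WT females (log2 fold change 0.55, SE 0.07, edgeR adjusted p = 0.00668), and leaving out each mouse in turn gave an edgeR adjusted p of 0.00405 to 0.0295. Its relatives Gvin1 (0.42, edgeR adjusted p = 0.350) and Gvin3 (0.47, edgeR adjusted p = 0.386) had overlapping groups, and reads of this family may be shared among its members. Over the list of 21 interferon response genes tested, 20 had a positive fold change, with a median of 0.16, while 51.5% of all genes tested were negative. In the list's mean level, Gdf15-KO replicates 13 and 16 were at 0.41 and 0.46 on the log2 scale relative to the WT mean. The other Gdf15-KO females were at -0.04 to 0.05, within the WT range of -0.15 to 0.14. At an unadjusted p under 0.05, 1 of the 21 was higher, beside 4.42% of all genes tested, and none passed edgeR or DESeq2. The edgeR call of Gvin2 was lost when the erythrocyte marker level was added to the fit.

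Among the other higher genes, Mycbp2, a large ubiquitin ligase known from neurons, had 199.97, 218 and 269.9 CPM in Gdf15-KO females and 148, 168 and 185 CPM in WT females. Mycbp2 groups did not overlap, yet the gene passed only DESeq2 (log2 fold change 0.43, edgeR adjusted p = 0.0982, DESeq2 adjusted p = 0.000791). Lnpep, the aminopeptidase that travels with the glucose transporter GLUT4 in adipocytes, was also apart, with 47.4, 50.9 and 58.9 CPM in Gdf15-KO females and 29.3, 39.9 and 43.2 CPM in WT females (log2 fold change 0.44, DESeq2 adjusted p = 0.00347). Smaller rises by DESeq2, all with groups that did not overlap, were those of Mob1a of the Hippo pathway (0.19), Gigyf1 (0.20) and the histone demethylase Kdm6a (0.22), with DESeq2 adjusted p values of 0.00099, 0.00145 and 0.0125. Trim56, Zfp715, Ino80d and Ice1 rose with fold changes of 0.20 to 0.30 and did not overlap either, while Son, a nuclear speckle protein (0.21), did overlap.

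Of the lower genes outside, Cidea, a lipid droplet protein typical of brown and beige fat, had the largest change among the 12 with the smallest DESeq2 p. It had 11.4, 19.2 and 27.9 CPM in Gdf15-KO females, against 26.8, 43.9 and 61.5 CPM in WT females. The groups overlapped by 1 mouse on each side (log2 fold change -1.18, SE 0.23, edgeR adjusted p = 0.0982, DESeq2 adjusted p = 0.000134). Creld1, a membrane protein with EGF-like domains, had 53.7, 61.0 and 69.9 CPM in Gdf15-KO females and 71.5, 79.9 and 89.7 CPM in WT females, with no overlap (log2 fold change -0.39, edgeR adjusted p = 0.0982, DESeq2 adjusted p = 0.000522). The secreted leucine-rich protein Tsku, the autophagy protein Gabarap, the mitochondrial RNA-binding protein Grsf1 and the long-chain acyl-CoA dehydrogenase Acadl also fell by DESeq2 with no overlap. Their log2 fold changes were -0.64, -0.18, -0.19 and -0.32 (DESeq2 adjusted p = 0.00192, 0.00293, 0.000268 and 0.00293). Txnl1 and Emc3 fell with a slight overlap (-0.27 and -0.22, DESeq2 adjusted p = 0.00192 for each).

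**Figure D4:**
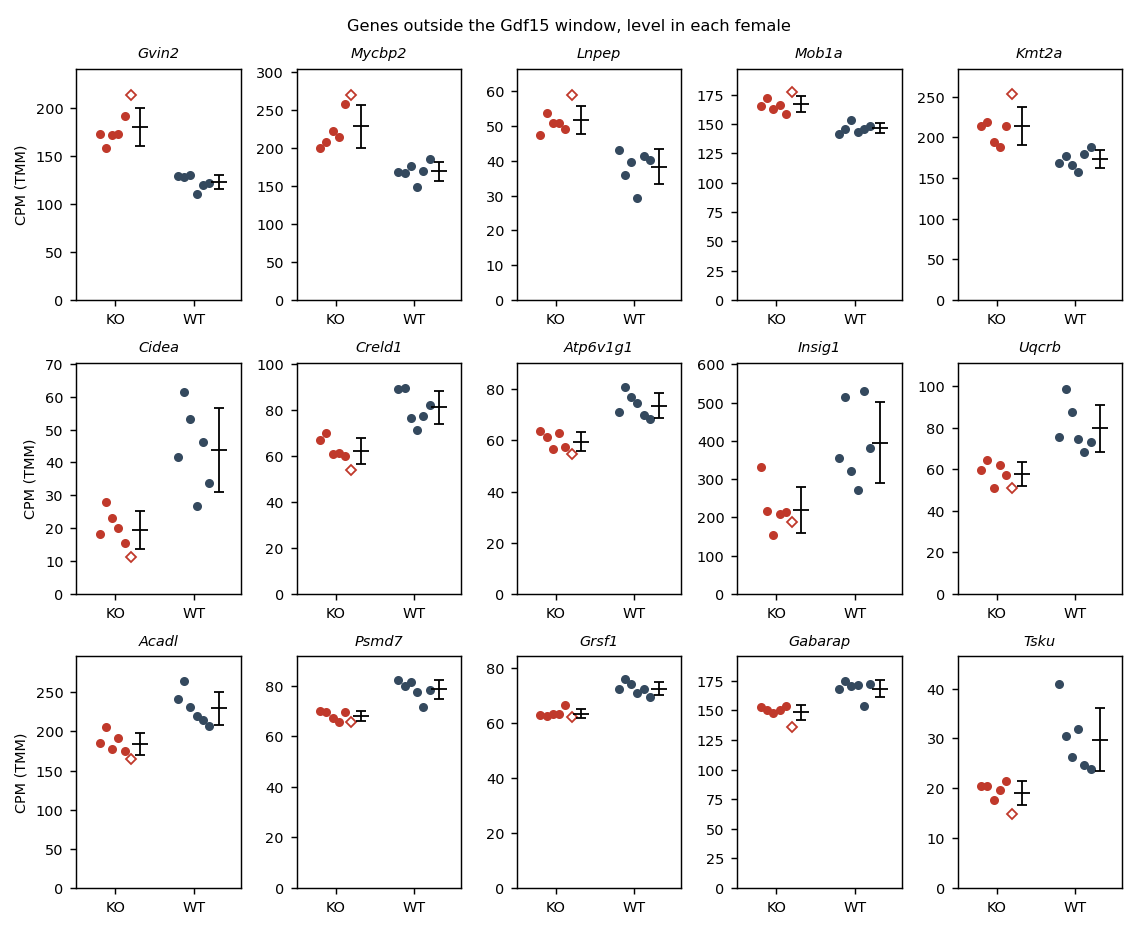
CPM of 15 genes outside the Gdf15 neighbourhood in each of the 6 Gdf15-KO females (red, left; open diamond, replicate 18) and 6 WT females (blue, right), with bars for mean ± SD. The 5 genes of the top row are higher in Gdf15-KO females without overlap, and among the lower genes Cidea and Insig1 overlap.

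The outside calls leaned on few mice. Gdf15-KO replicate 18 was the Gdf15-KO female farthest from WT in 87 of the 157 genes, and WT replicate 2 was the WT female farthest from Gdf15-KO in 78. DESeq2 called 41 genes outside the neighbourhood without Gdf15-KO replicate 18, 41 without Gdf15-KO replicate 15, 40 without WT replicate 1 and 32 without WT replicate 2, against 440 without WT replicate 4. Near Gdf15 the same omissions left 29 to 44 calls.

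Genes of oxidative phosphorylation had lower values throughout. All 36 genes tested of respiratory complex I had a negative fold change (median -0.31), beside 51.5% of all genes tested. Of the 36, 30 were lower at an unadjusted p under 0.05, beside 7.31%, and 6 fell by DESeq2, beside 1.08%. These shares over all genes are the ones to set beside the counts of lower genes in the lists that follow. Ndufa11 had 23.8, 28.6 and 31.0 CPM in Gdf15-KO females, against 31.1, 36.9 and 44.3 CPM in WT females. Its groups touched without overlapping (log2 fold change -0.41, edgeR adjusted p = 0.173, DESeq2 adjusted p = 0.00384). Likewise all 35 genes tested of complexes III to V were negative (median -0.31), with 28 lower at an unadjusted p under 0.05 and 7 by DESeq2. Uqcrb of complex III averaged 57.6 ± 5.69 CPM in Gdf15-KO females and 79.6 ± 11.3 CPM in WT females (SD, n = 6 each; DESeq2 adjusted p = 0.00143). Cox5a of complex IV averaged 75.1 ± 11.3 CPM in Gdf15-KO females and 103 ± 17.3 CPM in WT females (DESeq2 adjusted p = 0.0281). The groups of both genes did not overlap. Cycs, which encodes cytochrome c, fell by 0.56 with an overlap (DESeq2 adjusted p = 0.0379). No gene of either list passed edgeR.

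The steps that feed the respiratory chain showed the same direction. In the list of the TCA cycle and pyruvate 25 of 26 genes were negative (median -0.29), 20 were lower at an unadjusted p under 0.05 and Idh3a, a subunit of isocitrate dehydrogenase, fell by DESeq2 (-0.38, adjusted p = 0.0466). In fatty acid oxidation 27 of 28 were negative (median -0.26), 19 were lower at an unadjusted p under 0.05 and 5 fell by DESeq2. The carnitine-acylcarnitine carrier Slc25a20 had 43.1, 49.6 and 57.5 CPM in Gdf15-KO females and 57.8, 62.1 and 68.8 CPM in WT females, just apart (DESeq2 adjusted p = 0.0115). Etfdh and Acad11 fell by 0.31 and 0.32 with some overlap (DESeq2 adjusted p = 0.0168 and 0.0248). Of the mitochondrial ribosome, all 44 genes were negative (median -0.16), 20 at an unadjusted p under 0.05, but Mrpl34 near Gdf15 was the only one called by edgeR or DESeq2. The cytosolic ribosome stood apart from these lists, with a median of -0.03 over 38 genes and none below an unadjusted p of 0.05. That median was 0.03 when the trend with transcript length was removed.

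De novo lipogenesis, the synthesis of fatty acids from acetyl-CoA, had the lowest median of the metabolic lists at -0.58. All 18 genes tested were negative. At an unadjusted p under 0.05, 9 were lower, beside 7.31% of all genes tested, and 1, Acacb, fell by DESeq2, beside 1.08%. Acacb, the acetyl-CoA carboxylase of mitochondria, had 267, 359.7 and 617 CPM in Gdf15-KO females, against 451, 763 and 852 CPM in WT females. The groups overlapped (log2 fold change -0.85, SE 0.23, edgeR adjusted p = 0.223, DESeq2 adjusted p = 0.0186). The mean level of the list split the Gdf15-KO females: replicates 16, 17 and 18 were below every WT female, and replicates 13 and 14 were at -0.08 and -0.18 on the log2 scale relative to the WT mean. Scd1, the most abundant member, illustrates the spread, with 17304, 27328 and 43620 CPM in Gdf15-KO females and 33597, 47175 and 50772 CPM in WT females (edgeR adjusted p = 0.379). Some members of the lipid lists were picked by the study on these same mice, so their direction is not independent evidence.

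Genes of cholesterol synthesis had the same direction. Of 25 genes tested 21 were negative (median -0.34), 15 were lower at an unadjusted p under 0.05 and Insig1 and Acat2 fell by DESeq2. Insig1, which holds the sterol-sensing SREBP complex in the endoplasmic reticulum and is itself an SREBP target, had 153, 211 and 330.4 CPM in Gdf15-KO females, against 271, 368 and 531 CPM in WT females. It overlapped only through Gdf15-KO replicate 13, the highest of its group (log2 fold change -0.86, edgeR adjusted p = 0.192, DESeq2 adjusted p = 0.00557). Acat2, which makes acetoacetyl-CoA, fell by 0.72 (DESeq2 adjusted p = 0.0369).

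SREBP proteins bind sterol regulatory elements, so the promoters of both lists were searched on either strand for the pattern TCACNCCAC, with N for any base, from 250 bases before to 50 bases after each start site (RefSeq, GRCm38.p6). Of the cholesterol list 1 of 18 genes with a promoter sequence held it (5.56%) and of the lipogenesis list 1 of 15 (6.67%), beside 1.44% of all 27025 genes with one. The matches were in Hmgcs1, the cytosolic HMG-CoA synthase, and Mlxipl, the glucose-responsive factor ChREBP, and are printed with 45 bases on each side because they are where these lists and the pattern meet. The match is in capitals, 5′ to 3′, on the plus strand at chr13:119690169-119690267, 137 bases before the start site (Hmgcs1), and chr5:135106710-135106808, 136 bases before it (Mlxipl).
Hmgcs1: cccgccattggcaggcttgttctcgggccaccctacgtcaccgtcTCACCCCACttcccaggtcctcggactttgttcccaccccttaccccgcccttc
Mlxipl: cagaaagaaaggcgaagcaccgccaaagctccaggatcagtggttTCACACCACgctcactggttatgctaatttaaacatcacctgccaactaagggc
Neither gene passed a test: Hmgcs1 averaged 79.3 ± 9.87 CPM in Gdf15-KO females and 99.5 ± 19.4 CPM in WT females (SD, n = 6 each; edgeR adjusted p = 0.359), and Mlxipl averaged 168 ± 32.2 CPM in Gdf15-KO females and 199.9 ± 61.5 CPM in WT females (edgeR adjusted p = 0.688). A match of letters is a description and no measure of binding.

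In triglyceride synthesis the median was -0.12 with 6 of 17 genes lower at an unadjusted p under 0.05 and none by DESeq2. Lipolysis and lipid droplets had a median of -0.11, and Cidea and the droplet coat protein Plin2 (-0.63, DESeq2 adjusted p = 0.0152) fell by DESeq2 among 20 genes. Lipid uptake and transport had a median of -0.19, and Lpl, Slc27a1 and Apoc1 (-0.31, DESeq2 adjusted p = 0.0133) fell by DESeq2 among 17 genes. Both Lpl and Slc27a1 lie near Gdf15, and without such neighbours the list's median was -0.11. In the mean level of the uptake list 5 of 6 Gdf15-KO females were below every WT female. Among 17 brown and beige fat genes the median was -0.29, with Cidea alone called by DESeq2. Glycolysis had a median of -0.32 with 10 of 18 genes lower at an unadjusted p under 0.05 and none by DESeq2, and adipocyte identity genes had a median of -0.12 with 0 of 19 called by either test.

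Protein breakdown and acidification joined the lower lists. All 32 proteasome genes tested were negative (median -0.19), beside 51.5% of all genes tested. At an unadjusted p under 0.05, 21 were lower, beside 7.31%, and 6 fell by DESeq2, beside 1.08%. Psmd7, a lid subunit of the regulatory particle, had 65.4, 68.4 and 69.8 CPM in Gdf15-KO females, against 71.7, 79.1 and 82.4 CPM in WT females. The change was small and the groups did not overlap (log2 fold change -0.21, SE 0.04, edgeR adjusted p = 0.151, DESeq2 adjusted p = 0.000465). Psmd8 and Psmd6 fell by 0.24 and 0.26 (DESeq2 adjusted p = 0.00138 and 0.0248). Of the V-ATPase and lysosome list, 27 of 32 were negative (median -0.09) and 4 fell by DESeq2, all of them V-ATPase subunits: Atp6v1b2 near Gdf15, Atp6v1g1 (-0.31, adjusted p = 0.000106), Atp6v0d1 (-0.15, adjusted p = 0.0125) and Atp6v1e1 (-0.22, adjusted p = 0.0204). Atp6v1g1 had 54.7, 59.3 and 63.8 CPM in Gdf15-KO females and 68.2, 72.8 and 80.9 CPM in WT females, without overlap. The proteasome list was drawn up after values of its genes had been seen, as was the next.

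In the opposite direction, 33 of 36 genes of chromatin modifiers had a positive fold change (median 0.14), 19 were higher at an unadjusted p under 0.05, beside 4.42% of all genes tested, and 3 rose by DESeq2, Kdm6a, Ino80d and Kmt2a. Kmt2a, a histone methyltransferase, had 189, 214 and 254 CPM in Gdf15-KO females and 158, 173 and 188 CPM in WT females, so the groups only just separated (log2 fold change 0.31, edgeR adjusted p = 0.201, DESeq2 adjusted p = 0.0191). These transcripts are long, with a median of 9914 bases beside 4335 over all genes tested, and fold changes in general went with transcript length. The median log2 fold change was -0.11 over genes with transcripts up to 1000 bases and 0.07 over genes above 8000 bases. At an unadjusted p under 0.05, 14.7% of the shortest class were lower and 0.377% higher, against 1.92% lower and 13.8% higher in the longest class. Outside the neighbourhood, the DESeq2 genes that rose had a median length of 8414 bases and those that fell 3603 bases.

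With each library's trend with length removed, a step chosen after the data were seen, 6 of the 36 chromatin modifiers were higher at an unadjusted p under 0.05 (median 0.08). Complex I then had 27 lower of 36 (median -0.27), complexes III to V 25 of 35 (-0.26), the proteasome 18 of 32 (-0.16) and lipogenesis 9 of 18 (-0.56). At the same threshold, 969 of all 14753 genes tested were then lower and 516 higher. By DESeq2, 3 genes of complex I, 2 of complexes III to V, 4 of the proteasome and 1 of lipogenesis were then lower. It called 0 chromatin modifiers. Cox5a and Cycs no longer passed (DESeq2 adjusted p = 0.0592 and 0.0589), nor did Kdm6a, Ino80d and Kmt2a (0.0589, 0.262 and 0.349). DESeq2 then called 79 lower and 13 higher genes outside the neighbourhood, 76 of them among the 157, and edgeR still called Gvin2 alone there. The part of transcript length or RNA quality in these lists was not tested further.

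**Figure D5:**
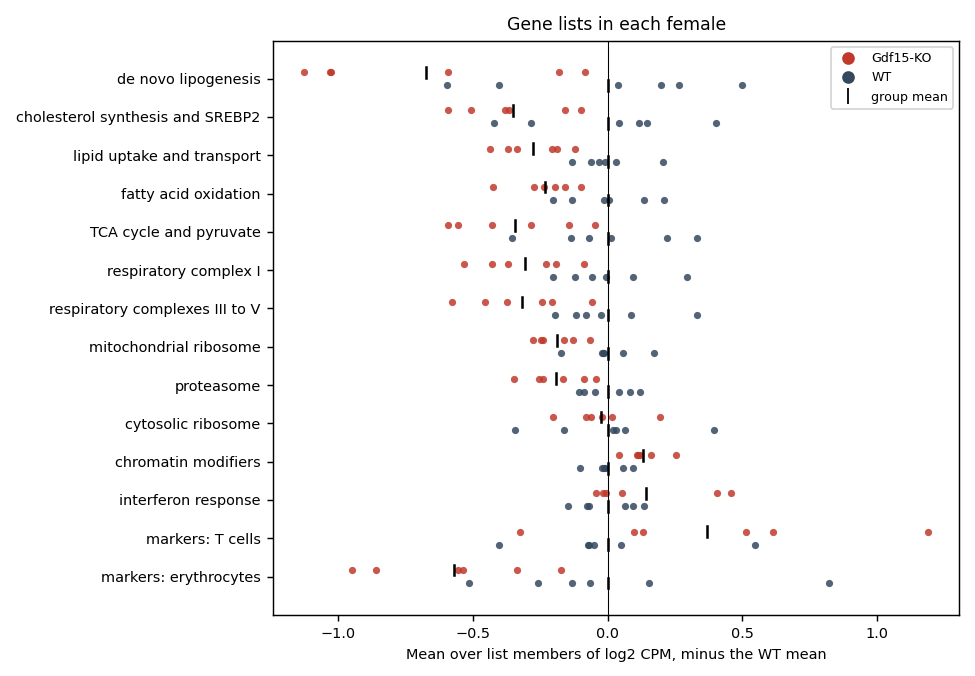
Mean over the members of each of 14 gene lists of log2 CPM minus the WT mean, in each of the 6 Gdf15-KO females (red, upper dots of each row) and 6 WT females (blue, lower dots), with a bar at each group mean. The groups overlap in every list; lipogenesis spreads from -1.13 to -0.08 in Gdf15-KO females, and chromatin modifiers run over 0.04 to 0.25 in Gdf15-KO and -0.10 to 0.09 in WT females.

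Few markers of other cell types passed a test. All 14 T cell markers tested had a positive fold change (median 0.43). At an unadjusted p under 0.05, 2 were higher, beside 4.42% of all genes tested, but none passed edgeR or DESeq2. The summed level of the list was 345 to 964 CPM in Gdf15-KO females and 331 to 629 CPM in WT females. The 7 erythrocyte markers were negative (median -0.62), and 5 were lower at an unadjusted p under 0.05, beside 7.31% of all genes tested. DESeq2 called Hbb-bt, a beta-globin (adjusted p = 0.0429). The sum of the erythrocyte list was 287 to 505 CPM in Gdf15-KO females and 404 to 1173 CPM in WT females. In its mean level 4 Gdf15-KO females were below every WT female. Macrophage markers summed to 2313 to 3856 CPM in Gdf15-KO females and 2184 to 3310 CPM in WT females, and none of 18 was called. The median over 19 mammary gland and epithelial markers was -0.27, and 0.06 without WT replicate 4. With the mammary, muscle, B cell, T cell or erythrocyte marker level added to the fit, the lipogenesis median ran over -0.80 to -0.58. Medians ran over -0.42 to -0.28 for the TCA cycle and pyruvate, -0.36 to -0.30 for complex I and -0.20 to -0.12 for lipid uptake. The T cell and erythrocyte levels were chosen after the data were seen. The part of these cells in the lower metabolic lists was not tested further.

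Stress pathways tied to GDF15 held no gene that passed a test. The integrated stress response, through which Gdf15 is known to be induced, had 20 genes tested with a median of -0.02, and the unfolded protein response had 20 with a median of -0.02. This holds for both edgeR and DESeq2. Of 34 other ligands, receptors and Smads of the TGF-beta superfamily the median was 0.03, and none was called. The collagen and matrix list had a median of -0.11, and 0.06 without WT replicate 4, with no gene at an unadjusted p under 0.05.

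No gene could be called particular to females. In a model of all 24 mice, 0 of 14982 genes (0%) had a genotype effect that differed between the sexes at an adjusted p under 0.05 in edgeR, where the smallest adjusted p was 0.998, 528 genes had an unadjusted p under 0.05, and limma-voom and DESeq2 also called 0. In males, which share no mouse with the females, all 40 genes near Gdf15 that DESeq2 called in females had a fold change of the same sign. Their median log2 fold changes were -0.48 in females and -0.44 in males. The edgeR test called 21 of these 40 in males. In females the same test called 17 genes near Gdf15, all but Slc18a1 among the 40. Of the 109 genes lower outside, 105 had the same sign in males (medians -0.33 in females and -0.15 in males). Of the 48 higher outside, 30 did (0.22 in females and 0.01 in males). Over all 14264 genes with values in both sexes, 61.5% did. The called genes were chosen by their DESeq2 result in females, a choice that favours larger fold changes in females than in males. Of these 157 genes outside, edgeR called 1 in females, Gvin2, and 0 in males. Gvin2 had a log2 fold change of -0.06 in males, with an unadjusted interaction p of 0.0146.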

How the data were processed

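RNA of sWAT from 24 mice was sequenced by the authors, who aligned reads with Bowtie2 2.2.5 to GRCm39 and deposited RSEM 1.2.8 expected counts (estimated counts per gene, 5.07% of values with decimals) for 19175 genes, and 0 columns lacked a sample. Here the 12 female columns were rounded to whole numbers, filtered with filterByExpr (minimum count 10, minimum total 15), scaled by TMM and fitted by genotype in edgeR 4.0.16 (R 4.3.3) with quasi-likelihood tests. DESeq2 1.42.0, the study's tool, gave a second set of calls and limma 3.58.1 an alternative. Calls used a Benjamini-Hochberg adjusted p under 0.05. Unlike the females, fitted alone, the test of sex used all 24 mice.

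Depth was 22543249 to 24500575 summed expected counts per female, and no libraries were duplicates. Positions came from GENCODE mouse release 39 for 18217 genes. Named were Gdf15, all edgeR genes, DESeq2 genes within 20 Mb of Gdf15, the 12 higher and 12 lower genes elsewhere with the smallest DESeq2 p at 1 CPM or more, and up to 4 genes per list with the smallest edgeR p plus its most abundant, with exceptions said in the text. A few genes that this rule names are not reported here. The members, gene lists and rules were chosen with earlier results of these data known. The numbers shared by females and males in the labels are not said to mark a litter or day and were not taken to pair mice. Scripts were tested on simulated data. Alternatives were other scalings, filters, tests, thresholds, marker levels as covariates, window sizes and leaving out each mouse. Males as such were not described.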

Additional observations from a re-analysis of the deposited data

Results flagged for a closer look

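In 290 groups of 6 females, for 145 genes and lists named in the text, the highest or lowest mouse was set against the rest of its group, and 22 groups (7.59%) had a mouse beyond Dixon's 95% limit. Chance flags about 1 group in 20.

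Gdf15-KO replicate 18 was the outlying mouse for 7 genes among the Gdf15-KO females. Near Gdf15 it was the highest for Borcs8 (24.9 CPM), Slc18a1 (0.681 CPM), Zfp869 (46.9 CPM) and Lpar2 (6.36 CPM) and the lowest for Zfp868 (24.5 CPM), in each case on the side of the WT values. Elsewhere it was the highest for Gigyf1 (119 CPM) and the lowest for Gabarap (136 CPM), in both cases on the side away from WT. It also had the lowest mean level of the lipolysis and lipid droplet list, -0.60 on the log2 scale relative to the WT mean, against -0.19 to -0.04 in the other Gdf15-KO females. Among other Gdf15-KO females, replicate 13 was the highest for Insig1 (330.4 CPM) and replicate 17 for Grsf1 (66.7 CPM).

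WT replicate 4 was the outlying WT mouse in 8 groups. It was the lowest for Lpl (3189 CPM) and Nr1d1 (84.8 CPM) and the highest for Colgalt1 (169.97 CPM), the epithelial keratin Krt19 (399.8 CPM) and Hbb-bt (112 CPM). Its mean levels on the log2 scale relative to the WT mean were -0.49 for adipocyte identity genes, 0.56 for collagen and matrix genes and 0.87 for mammary gland and epithelial markers. WT replicate 6 had the lowest mean level of skeletal muscle markers, at -5.29. Single genes set apart WT replicate 3 (Borcs8, lowest, 33.7 CPM), WT replicate 5 (Gabarap, lowest, 154 CPM) and WT replicate 2 (Cox5a, highest, 136 CPM).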

How the results depend on the processing

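The edgeR count of 18 became 197 with DESeq2, 29 with all 24 mice in the model and 28 with the B cell marker level as a covariate. The single gene outside the Gdf15 neighbourhood became 157 with DESeq2, 5 at an adjusted p under 0.1, and 6, 3, 2 and 0 with the mammary, B cell, T cell and erythrocyte marker levels as covariates (the T cell and erythrocyte levels chosen after seeing the data). With all 24 mice that gene was Cidea, and Gvin2 was lost. The DESeq2 count of 197 became 55 at an adjusted p under 0.01, 362 under 0.1, 89 with all 24 mice (72 of them shared) and 131 with the length trend (110 shared; chosen after seeing the data). The 147 genes without overlap became 270 with no TMM factor. Leaving out each mouse gave 12 to 21 edgeR calls, 1 to 4 of them outside, 66 to 484 DESeq2 calls and 161 to 312 genes without overlap. DESeq2 called 70 genes without Gdf15-KO replicate 15, 78 without Gdf15-KO replicate 18, 72 without WT replicate 1, 66 without WT replicate 2 and 484 without WT replicate 4. Without WT replicate 4, edgeR called Cidea, Creld1, Fn3k and Gvin2 outside, and without WT replicate 5 Pam16 and Gvin2, and without Gdf15-KO replicate 13 Cisd1 and Gvin2. Of the 12 omissions, the edgeR call was lost on 12 for 1700030K09Rik, 11 for Cherp, 9 each for Armc6 and Ccdc124, 8 for Lsm4, 3 for Slc18a1 and 1 for Atp6v1b2. None of the 88 called genes followed over these settings changed sign, but the medians of 19 of 42 lists did in at least 1 setting, among them those of mammary and muscle markers, collagen, the cytosolic ribosome, MHC class II and the stress responses. The cause of these shifts was not tested. No paired analysis was possible because Gdf15-KO and WT females share no replicate number; for the test of sex, the replicate block of numbers shared by a female and a male also gave 0 calls, and 4 of 12 females correlated best with their own number. Low counts leave genes such as Gdf15 and Slc18a1 imprecise.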

Other observations

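The NADPH and pentose phosphate list, which supplies reducing power for lipogenesis, had 9 of 12 genes negative with a median log2 fold change of -0.26. Its transketolase, Tkt, had 969.7, 1870.2 and 3151 CPM as lowest, median and highest values in Gdf15-KO females, against 1829, 3470 and 4605 CPM in WT females, with a wide overlap (log2 fold change -0.77, edgeR adjusted p = 0.385, DESeq2 adjusted p = 0.195). Pgls, the lactonase of this pathway near Gdf15, was the only member called, by DESeq2 (-0.37, adjusted p = 0.0125). Nnat, neuronatin, went the other way among adipocyte genes without passing a test, at 409.5 ± 152 CPM in Gdf15-KO females and 212 ± 108 CPM in WT females (SD, n = 6 each; log2 fold change 0.95, edgeR adjusted p = 0.324).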
